A study of Homo sapiens with 8 samples.

Results

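CHD6, CHD7, CHD8 and CHD9 make up the third subfamily of the chromodomain helicase DNA-binding (CHD) proteins. They were taken by gene name from the sgRNA tables of a pooled knockout screen, in which they were 4 of the 780 genes with any sgRNA and 4 of the 779 genes with at least 3 sgRNAs, the genes tested. Each of the 4 genes had 10 sgRNAs, which carry the numbers 1311 to 1320 for CHD6, 1321 to 1330 for CHD7, 1331 to 1340 for CHD8 and 1341 to 1350 for CHD9, so that 40 of the 7856 sgRNAs were theirs. All 40 were measured in every library and none was removed by a filter. In the RefSeq table for GRCh38.p14, the genes lie on chromosomes 20, 8, 14 and 16, in the order CHD6 to CHD9.

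The screen was done in T1-160 cells, a Taxol-resistant derivative of SUM159PT, itself a line of triple-negative breast cancer. The cells carried Cas9 and the EPIKOL library of sgRNAs against chromatin regulators. Taxol (paclitaxel) stabilises microtubules and blocks cell division. The 8 libraries of sgRNA amplicons from genomic DNA came from cells held in 160 nM Taxol for 16 population doublings (Taxol, 3 libraries), from cells kept in the vehicle DMSO for the same 16 doublings (DMSO, 3 libraries), and from cells collected once puromycin selection was over (AP, the initial time point, replicates 1 and 3). All cells shared 1 resistant line and had been through puromycin in the presence of verapamil, an inhibitor of the drug efflux pump ABCB1, and nothing in the labels says whether replicates were separate infections, so p-values measure only the spread between these libraries, which may be technical.

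CHD proteins use the energy of ATP to slide or evict nucleosomes. They carry a pair of chromodomains, which can read methylated histone tails, in front of a SNF2-like helicase motor, and the CHD6 to CHD9 subfamily also has BRK domains towards the end of the protein. CHD8 binds beta-catenin and represses Wnt target genes, can restrain p53 and associates with the WDR5, ASH2L and RBBP5 core of the MLL histone methyltransferases, and its loss-of-function mutations are a recurrent cause of autism. CHD7 is the gene mutated in CHARGE syndrome and works with the PBAF form of the SWI/SNF remodeller at enhancers. CHD6 and CHD9 are less well described, CHD6 in responses to oxidative stress and DNA damage and CHD9 in bone progenitor cells. In a pooled screen, an sgRNA becomes rarer when cells that lost its target divide less than the other cells of the same culture, and more abundant when they divide more.

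Library depth ranged from 2045984 reads in Taxol 2 to 11771418 reads in Taxol 1, or 260.4 to 1498 reads per sgRNA, and libraries of 1 group correlated at 0.61 to 0.75 across sgRNAs and differed by more than counting error (chi-square per degree of freedom 74.5 to 493). The 10 most abundant sgRNAs held 10.6%, 6.23% and 8.91% of the counts in Taxol 1 to 3, against 2.61%, 2.36% and 2.80% in DMSO 1 to 3. Sums of counts in the Taxol libraries therefore lean on few sgRNAs, and the level of a gene is given below as the mean over its 10 sgRNAs of log2(normalized count + 1). Differences are Taxol minus DMSO, DMSO minus AP or Taxol minus AP on that log2 scale, which understates changes of low counts. The efflux pump ABCB1, the library's control for loss of resistance, was depleted in Taxol relative to DMSO by RRA, a rank test explained below (difference -0.87, SD 0.33 between libraries, adjusted p = 0.0287), and with the replicate block its adjusted limma p was 0.0116. The RRA call was lost without Taxol 1 (adjusted p = 0.0827), Taxol 3 (0.0670), DMSO 1 (0.123) or DMSO 2 (0.309), with sgRNAs ranked by fold change (0.0599) and with ranks within 10% (0.216).

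CHD8 was the member of the subfamily whose sgRNAs were rarest in Taxol relative to DMSO. Its gene mean was 8.99, 8.78 and 8.54 in Taxol 1 to 3, against 9.24, 9.71 and 9.51 in DMSO 1 to 3. The 3 Taxol libraries all lay below the 3 DMSO libraries, with a gap of 0.25 between the nearest ones, and 4.49% of the 779 genes had Taxol libraries below all DMSO libraries. The difference was -0.72 (SD 0.23 between libraries, 95% interval -1.20 to -0.23), which corresponds to 60.9% of the DMSO level, and it was the fourth lowest of the 779 genes. On gene means the difference passed limma at an unadjusted p under 0.05, as 1.54% of genes did in that direction. Robust rank aggregation (RRA), which asks whether the sgRNAs of 1 gene crowd at 1 end of the ranking of all sgRNAs, gave an exact one-sided depletion p = 0.00160, past the unadjusted threshold of 0.05 that the study used and that 4.62% of genes passed. This p is exact for ranks of sgRNAs that are spread evenly, and takes no account of the number of libraries.

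After Benjamini-Hochberg adjustment over the 779 genes CHD8 was not called, with an adjusted p of 0.312 by RRA and 0.421 by limma. RRA called 0.257% of genes depleted and 0.128% enriched at that level, and limma on gene means called 0.128%. With the replicate number as a block, which pairs Taxol and DMSO libraries, the RRA p of CHD8 was 0.00242 and its adjusted p 0.526. Between libraries of the same number, the CHD8 mean in Taxol minus that in DMSO was -0.25, -0.93 and -0.97 for replicates 1, 2 and 3.

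**Figure D1:**
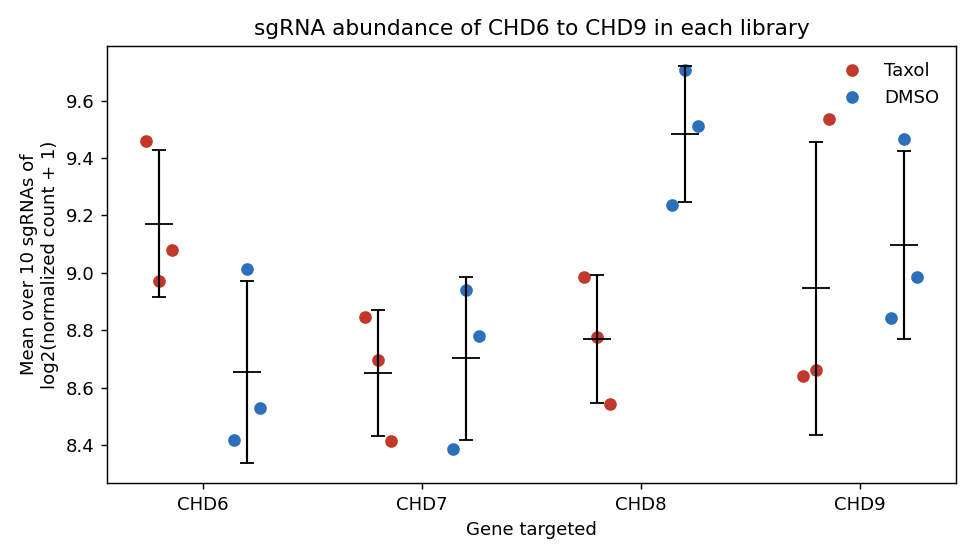
Mean log2(normalized count + 1) over the 10 sgRNAs of each gene (vertical axis, not starting at 0) in the 3 Taxol and 3 DMSO libraries; points are libraries 1 to 3 from left to right, and bars are the mean ± SD. The CHD8 points in Taxol lie between 8.54 and 8.99, all below those in DMSO, while the points of CHD6, CHD7 and CHD9 overlap between the groups.

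The depletion of CHD8 was spread over most of its sgRNAs. Of the 10, 9 were lower in Taxol than in DMSO, where 47.8% of all sgRNAs were, and of the 775 genes with 10 sgRNAs, 11 had 9 or 10 lower (1.42%). Single sgRNAs were noisy: none of the 7856 passed limma after adjustment (0%), and none passed limma with voom weights on recovered reads, while 122 were lower and 160 higher at an unadjusted p under 0.05 by limma. The sgRNA with the lowest difference was 1332, with 135, 176 and 147 normalized counts in Taxol 1 to 3, against 415, 681 and 304 in DMSO 1 to 3. Its groups did not overlap, its difference was -1.53, and it was the only CHD8 sgRNA at an unadjusted limma p under 0.05 (limma adjusted p = 0.965), a level that 1.55% of sgRNAs reached in that direction.

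In 2 further CHD8 sgRNAs every Taxol library also lay below every DMSO library. For 1338 the counts were 295, 364 and 337 in Taxol, against 755, 449 and 1698 in DMSO, a difference of -1.33. For 1336 they were 211, 292 and 211 in Taxol, against 326, 763 and 467 in DMSO, a difference of -1.05. Thus 3 of 10 CHD8 sgRNAs had Taxol counts below all DMSO counts and none had them above, against 4.26% and 4.76% of all sgRNAs.

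The sgRNA 1331 had 701, 595 and 594 normalized counts in Taxol, against 675, 2709.9 and 2719 in DMSO. Its difference of -1.44 was the second lowest of the gene, but DMSO 1 lay below Taxol 1, so the groups overlapped. The remaining 5 sgRNAs with lower values, 1334, 1335, 1337, 1339 and 1340, overlapped between the groups and differed by -0.61, -0.29, -0.28, -0.53 and -0.82.

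Only sgRNA 1333 had a positive difference, and it did so through 1 library. It had 11066, 765 and 583 normalized counts in Taxol 1 to 3, against 1098, 1278 and 785 in DMSO 1 to 3. Taxol 2 and Taxol 3 were thus below every DMSO library, and Taxol 1 was about an order of magnitude above them all. In Taxol 1 this sgRNA made up 73.5% of the CHD8 counts. Without it, the CHD8 mean was 8.49, 8.69 and 8.47 in Taxol 1 to 3, against 9.14, 9.64 and 9.50 in DMSO 1 to 3, and the difference became -0.88 with an RRA p of 0.000978. With each of the 10 sgRNAs left out in turn, the difference stayed between -0.88 and -0.63, the RRA p between 0.000978 and 0.0138 and its adjusted p between 0.209 and 0.889.

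**Figure D2:**
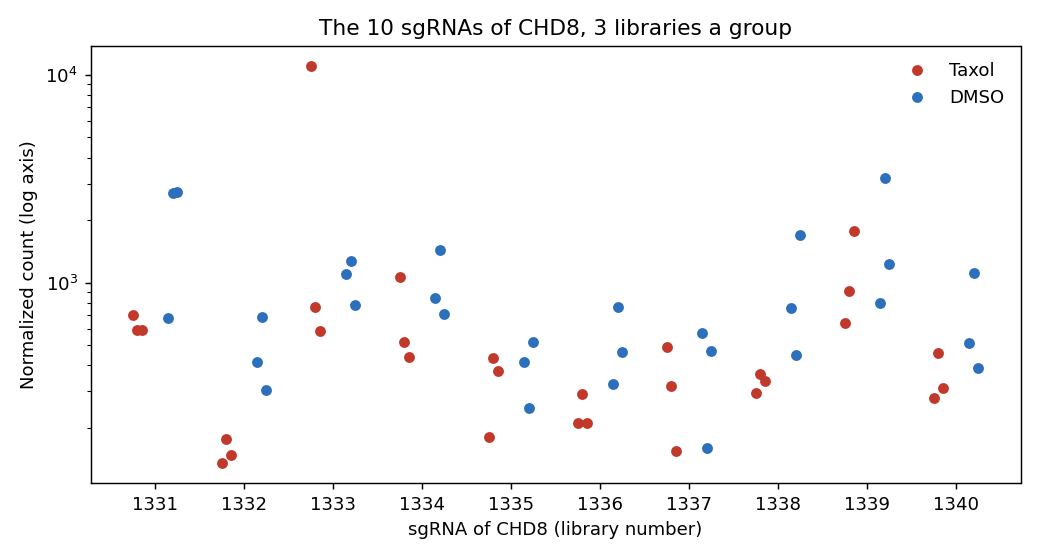
Normalized counts (log axis) of the 10 CHD8 sgRNAs in the 3 Taxol and 3 DMSO libraries, replicates 1 to 3 from left to right within a group. For 1332, 1336 and 1338 the Taxol points all lie below the DMSO points, and for 1333 Taxol 1 stands at 11066.

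CHD6 lay at the other end of the subfamily. Its gene mean was 9.46, 8.97 and 9.08 in Taxol 1 to 3, against 8.42, 9.01 and 8.53 in DMSO 1 to 3, so that DMSO 2 reached into the Taxol range. The difference was 0.52 (SD 0.29 between libraries, 95% interval 0.038 to 1.00), and 7 of its 10 sgRNAs were higher in Taxol. The exact RRA enrichment p was 0.0331, past the unadjusted threshold that 6.68% of genes passed, and the adjusted p was 0.653. On gene means CHD6 was higher at an unadjusted limma p under 0.05 (adjusted p = 0.748), as were 4.62% of genes. That call was lost without Taxol 1 (difference 0.37), DMSO 1 (difference 0.40) or DMSO 3 (difference 0.45), with equal totals (difference 0.21), with centring on the non-targeting sgRNAs (difference 0.35), with the median over sgRNAs (difference 0.21) and with voom on recovered reads (difference 0.21). The exact RRA p was 0.0645 without Taxol 1 and 0.107 without DMSO 3, both above the threshold.

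Within CHD6, a few sgRNAs with very high counts in 1 Taxol library stood beside others with no such value. The sgRNA 1317 had 8101, 787 and 1869 normalized counts in Taxol 1 to 3, against 887, 859 and 677 in DMSO 1 to 3, and made up 43.1% of the CHD6 counts of Taxol 1. The sgRNA 1320 had 5673, 520.3 and 398 in Taxol, against 1066, 432 and 522 in DMSO, and 1311 had 2601, 359.7 and 346 in Taxol, against 219, 218 and 356 in DMSO. All 3 were highest in Taxol 1, and the counts of all 3 overlapped between the groups. A similar single high value was in Taxol 2 for 1314, with 244, 1864 and 149.7 in Taxol, against 219, 215 and 178 in DMSO.

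The most even of the CHD6 sgRNAs was 1315, with 257, 118 and 108 normalized counts in Taxol 1 to 3, against 49.3, 51.7 and 45.9 in DMSO 1 to 3. All its Taxol counts were above all its DMSO counts, the difference was 1.58, and it was higher at an unadjusted limma p under 0.05, as 2.04% of sgRNAs were (limma adjusted p = 0.965). The opposite was seen for 1319, with 575, 879.9 and 797 in Taxol, against 1146, 1204 and 1255 in DMSO. Its Taxol counts were all below its DMSO counts, with a difference of -0.70. The other 4 CHD6 sgRNAs, 1312, 1313, 1316 and 1318, overlapped between the groups and differed by 0.084, -0.47, 0.24 and -0.26.

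CHD7 was close to the middle of the library. Its gene mean was 8.85, 8.70 and 8.41 in Taxol 1 to 3, against 8.39, 8.94 and 8.78 in DMSO 1 to 3, and the groups overlapped. The difference was -0.050 (SD 0.25, 95% interval -0.51 to 0.41), and its sign turned with the median over sgRNAs in place of the mean (0.059). It was -0.36 at equal totals and -0.22 with centring, neither of them called by limma after adjustment (adjusted p = 0.677 and 0.951). The exact RRA p was 0.717 for depletion and 0.750 for enrichment. Its sgRNAs ran from -1.12 for 1330 to 0.80 for 1327, 6 lower and 4 higher, and none of the 10 had groups that did not overlap.

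The lowest CHD7 value went with 1 high DMSO library. The sgRNA 1330 had 915, 317 and 224 normalized counts in Taxol 1 to 3, against 493, 2521 and 536 in DMSO 1 to 3. DMSO 2 was several times higher than DMSO 1 and DMSO 3, and Taxol 1 was higher than both of these.

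CHD9 was intermediate and uneven. Its gene mean was 8.64, 8.66 and 9.54 in Taxol 1 to 3, against 8.84, 9.47 and 8.98 in DMSO 1 to 3. Taxol 3 was above every DMSO library while Taxol 1 and Taxol 2 were below all of them. The difference was -0.15 (SD 0.43, 95% interval -0.66 to 0.36), the exact RRA depletion p was 0.167, and the value was 0.0015 without Taxol 1, 0.034 without DMSO 2, -0.46 at equal totals and -0.32 with centring.

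The CHD9 sgRNAs fell into a lower set and a few high counts in Taxol 3. In 3 sgRNAs the Taxol counts were all below the DMSO counts, as many as for CHD8. The sgRNA 1341 had 449, 577 and 427 normalized counts in Taxol, against 701, 1401 and 853 in DMSO, a difference of -0.97. The sgRNA 1342 had 266, 280.5 and 277 in Taxol, against 364, 915 and 335 in DMSO, a difference of -0.81, and 1348 had 644, 964 and 1107 in Taxol, against 1441, 1223 and 1286 in DMSO, a difference of -0.57. None of these 3 passed limma unadjusted. Against these, 1347 had 140.0, 122 and 3495 normalized counts in Taxol, against 75.3, 91.6 and 348 in DMSO, and 1343 had 1179, 681 and 5559 in Taxol, against 1355, 1509 and 1193 in DMSO. Both had positive differences, 1.54 and 0.29, with Taxol 3 far above every other library. The other 5, 1344, 1345, 1346, 1349 and 1350, overlapped between the groups and lay between -0.92 and 0.30.

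**Figure D3:**
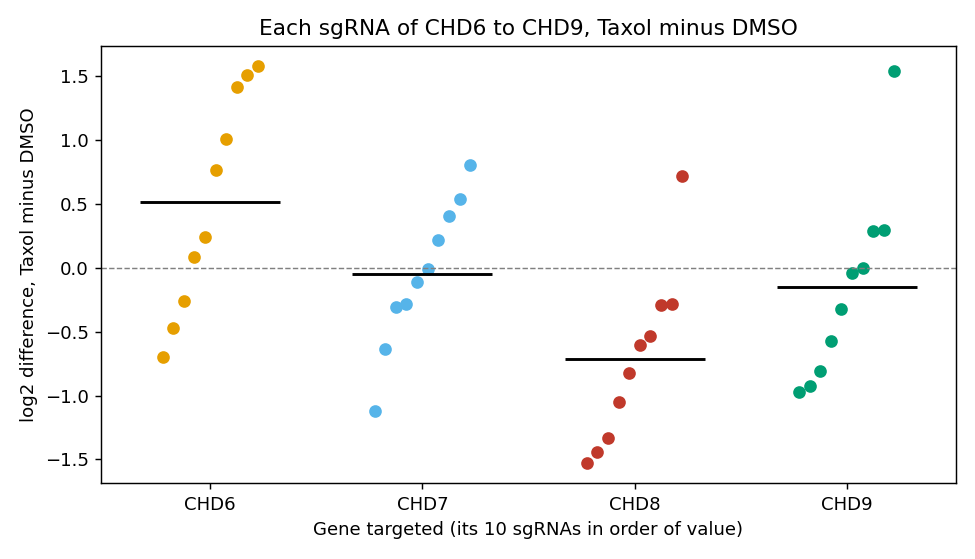
log2 difference, Taxol minus DMSO, of each of the 10 sgRNAs of CHD6, CHD7, CHD8 and CHD9, in order of value; the horizontal bars are the gene means. CHD8 has 9 of 10 sgRNAs below 0, with a gene mean of -0.72, while those of CHD6 run from -0.70 to 1.58.

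The difference between CHD8 and its paralogues was tested within libraries, since the scaling of a library cancels there. The CHD8 mean minus the average of the CHD6, CHD7 and CHD9 means was 0.0044, -0.00098 and -0.47 in Taxol 1 to 3, against 0.69, 0.57 and 0.75 in DMSO 1 to 3. The groups did not overlap, and the difference of -0.82 had p = 0.1 by an exact two-sided permutation test over the 6 libraries, the smallest p that 3 against 3 libraries can give. This contrast held both the lower CHD8 and the higher CHD6 in Taxol, and in Taxol 3 also the high CHD9 mean of 9.54. It lay between -0.90 and -0.66 with each library left out in turn.

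**Figure D4:**
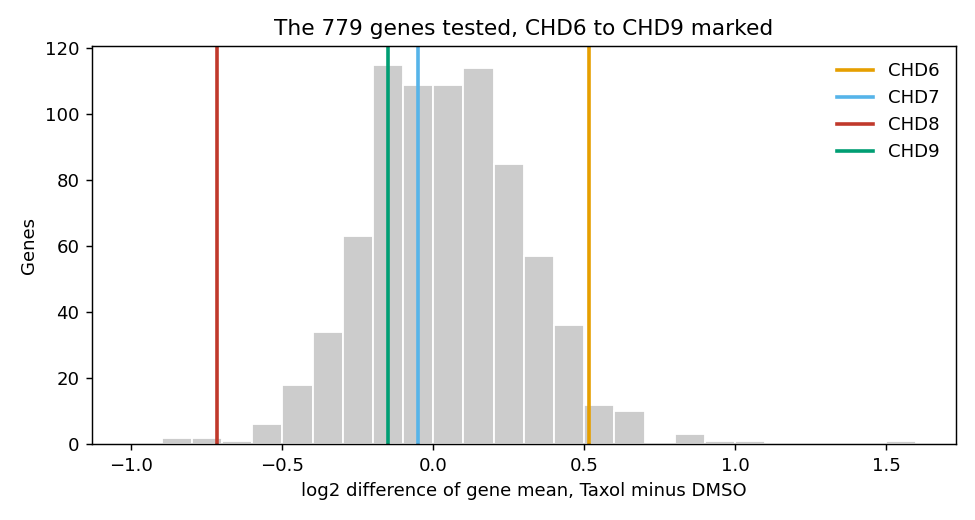
Number of genes (vertical axis) by log2 difference of the gene mean, Taxol minus DMSO, for the 779 genes tested, with coloured lines at CHD6, CHD7, CHD8 and CHD9. CHD8 stands at -0.72 in the lower tail, CHD6 at 0.52 in the upper tail, and CHD7 and CHD9 near the median of 0.031.

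The zero of these differences depends on how libraries are scaled. The median of all genes was 0.031 for Taxol minus DMSO as deposited, -0.28 with libraries scaled to the same total and -0.14 with libraries centred on the non-targeting sgRNAs. Gene-mean calls at an unadjusted limma p under 0.05 were 12 lower and 36 higher as deposited, 59 lower and 5 higher at equal totals and 30 lower and 4 higher with centring. Relative to the median of all genes, CHD8 lay at -0.75, CHD6 at 0.49, CHD7 at -0.081 and CHD9 at -0.18. These scalings shift all genes of a library by about the same amount, so they cannot test these distances or the rank of CHD8.

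The share of a library's counts that belongs to a gene needs no scaling between tables and can be set side by side for all 3 groups. It is in effect a scaling to equal totals. On that scale the median of all gene means was -0.28 for Taxol minus DMSO and -0.54 for Taxol minus AP. A low share in Taxol is thus not by itself a depletion of the gene. If all sgRNAs were equal, 10 of 7856 would hold 0.127%. CHD8 held 0.182, 0.104 and 0.0824% in Taxol 1 to 3, 0.141, 0.207 and 0.206% in DMSO 1 to 3 and 0.185 and 0.164% in AP 1 and AP 3. Taxol 2 and Taxol 3 were thus below every other library, while Taxol 1, with the high count of 1333, was among the DMSO and AP values. CHD6 held 0.227, 0.138 and 0.165% in Taxol, 0.113, 0.135 and 0.127% in DMSO and 0.130 and 0.119% in AP, so its 3 Taxol libraries were the 3 highest. CHD7 held 0.0678, 0.0941 and 0.0666% in Taxol, 0.0891, 0.124 and 0.116% in DMSO and 0.154 and 0.117% in AP, and CHD9 held 0.0628, 0.103 and 0.225% in Taxol, 0.131, 0.160 and 0.142% in DMSO and 0.121 and 0.117% in AP. For CHD7, Taxol 1 and Taxol 3 were the lowest of the 8 libraries, and for CHD9 Taxol 3 was the highest and Taxol 1 the lowest.

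Growth in DMSO was set against the initial AP cells to ask which sgRNAs changed without the drug. CHD8 was not called depleted after 16 doublings in DMSO. Its gene mean, in the table of this comparison, was 9.66, 10.22 and 9.94 in DMSO 1 to 3, against 9.71 and 9.53 in AP 1 and AP 3, and DMSO 1 lay between the AP libraries. The difference was 0.32 (SD 0.24, 95% interval -0.15 to 0.78), with an adjusted limma p = 0.411 and an exact RRA depletion p = 0.627, and it was -0.065 with libraries scaled to the same total. Relative to the median of all genes, 0.15 as deposited, CHD8 lay at 0.17. The strongest of its sgRNAs here was 1331, with 904, 3878 and 3658 normalized counts in DMSO 1 to 3, against 364 and 1236 in AP 1 and AP 3, a difference of 1.80 (limma adjusted p = 0.721) with groups that overlapped. It was higher at an unadjusted limma p under 0.05, as 3.16% of sgRNAs were. In the same direction 1332, with 555, 974 and 409 in DMSO, against 344 and 283 in AP, was the only CHD8 sgRNA whose groups did not overlap.

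As deposited, CHD9 had the largest difference of the 4 members between DMSO and AP, which other scalings changed (at equal totals CHD7 was at -0.50, CHD6 at -0.41 and CHD9 at 0.23). Its gene mean was 9.26, 9.98 and 9.41 in DMSO 1 to 3, against 8.89 and 8.98 in AP 1 and AP 3. The groups did not overlap, as for 29.3% of genes in that direction. The difference was 0.61 (SD 0.31, 95% interval 0.13 to 1.10), or 0.47 relative to the median of all genes, and CHD9 passed limma unadjusted (adjusted p = 0.170), with 12.5% of genes higher and 8.73% lower at an unadjusted p under 0.05 and 2.18% called after adjustment. All 10 CHD9 sgRNAs were higher in DMSO, as for 13 of the 775 genes with 10 sgRNAs (1.68%). The exact RRA enrichment p was 0.0966, not past the threshold that 8.47% of genes passed. The unadjusted limma call was lost without AP 1 (difference 0.57), without AP 3 (difference 0.66), with libraries scaled to the same total (difference 0.23), with centring on the non-targeting sgRNAs (difference 0.30), with the median over sgRNAs (difference 0.40), with voom (difference 0.23) and with the replicate block (difference 0.40).

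Among the CHD9 sgRNAs, 1345 had the largest difference, with 677, 712 and 778 normalized counts in DMSO 1 to 3, against 129 and 408 in AP 1 and AP 3. Its DMSO counts were all above its AP counts, with a difference of 1.65 (limma adjusted p = 0.721), and the AP counts differed several-fold from each other. The sgRNA 1348 was more even, with 1930.0, 1749 and 1731 in DMSO, against 1234 and 1159 in AP, a difference of 0.59. In all, 4 of 10 CHD9 sgRNAs had DMSO counts above all AP counts and none had them below, against 11.2% and 12% of all sgRNAs.

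CHD6 and CHD7 had small differences between DMSO and AP as deposited, and larger negative ones under the other scalings, -0.41 and -0.50 at equal totals and -0.34 and -0.42 with centring, none of them called by limma after adjustment. The CHD6 mean was 8.84, 9.53 and 8.96 in DMSO 1 to 3, against 9.23 and 9.04 in AP 1 and AP 3, a difference of -0.030 (SD 0.31, 95% interval -0.52 to 0.46) whose sign turned without DMSO 1, DMSO 3 or AP 1. The CHD7 mean was 8.81, 9.46 and 9.21 in DMSO 1 to 3, against 9.37 and 9.17 in AP 1 and AP 3, a difference of -0.12 (SD 0.28, 95% interval -0.59 to 0.36) whose sign turned without DMSO 1. In both genes the groups overlapped. The CHD7 sgRNAs ran from -1.13 for 1327 to 1.49 for 1330. The sgRNA 1330 had 659.9, 3608 and 721 normalized counts in DMSO, against 390.0 and 467 in AP, and 1327 had 245, 281 and 371 in DMSO, against 643 and 648 in AP. Neither had groups that overlapped, so sgRNAs of 1 gene stood apart in opposite directions. None of the 4 members passed the RRA threshold in either direction, where 11.6% of genes were depleted and 8.47% enriched without adjustment and 2.31% and 0.128% with it.

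The CHD6 sgRNA 1315, the one that was evenly higher in Taxol than in DMSO, was rarer in DMSO than in AP. In AP it was already below the median of the CHD6 sgRNAs, 698 in AP 1 and 538 in AP 3. It had 66.0, 73.9 and 61.8 normalized counts in DMSO 1 to 3, against 272 and 167 in AP 1 and AP 3, a difference of -1.66 (limma adjusted p = 0.721), past an unadjusted limma p of 0.05 as 3.63% of sgRNAs were in that direction. In the table of Taxol and AP it had 278, 127 and 117 in Taxol 1 to 3, against 208 and 128 in AP 1 and AP 3, a difference of -0.024 with groups that overlapped. These comparisons share their DMSO or AP libraries, so the values are not independent.

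Taxol was last set against AP, a comparison that shares its Taxol and AP libraries with the other 2. CHD8 had a gene mean of 9.10, 8.89 and 8.67 in Taxol 1 to 3, against 9.32 and 9.15 in AP 1 and AP 3. The Taxol libraries all lay below the AP libraries, by as little as 0.054 for Taxol 1, as for 14.5% of genes. The difference was -0.35 (SD 0.19, 95% interval -0.82 to 0.11), or -0.55 relative to the median of all genes, 0.20 as deposited. RRA gave an exact depletion p = 0.0438 (adjusted p = 0.353), at the unadjusted threshold that 13% of genes passed, and limma on gene means gave no call (adjusted p = 0.297). The exact RRA p was 0.0502 without Taxol 2, 0.135 without AP 1 and 0.0651 without AP 3.

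Scaling decided the limma call of CHD8 here. The median of all genes was -0.54 with libraries scaled to the same total and -0.33 with centring on the non-targeting sgRNAs, and the CHD8 difference was -1.09 and -0.88 with these, with adjusted limma p-values of 0.0217 and 0.0116. Gene-mean calls at an unadjusted limma p under 0.05 were 49 lower and 132 higher as deposited (6.29% and 16.9% of genes, and 0.128% after adjustment), 250 lower and 6 higher at equal totals and 235 lower and 7 higher with centring. In the comparison of DMSO and AP they were 68 lower and 97 higher, 212 lower and 9 higher and 105 lower and 3 higher, with medians of 0.15, -0.24 and -0.16. In Taxol against AP, 94.1% of all genes had negative differences at equal totals and 81.1% with centring, against 32.3% as deposited. The share of genes called after adjustment at equal totals or with centring is not given here. Relative to the median of all genes, CHD8 lay at -0.55 in Taxol against AP, a distance that these scalings leave nearly unchanged by construction.

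The 3 CHD8 sgRNAs with Taxol counts below all DMSO counts were also below all AP counts in the same Taxol libraries, and 1340 joined them. In these 4 of 10, 1332, 1336, 1338 and 1340, the Taxol counts were all below the AP counts, and in none were they all above, against 13.6% and 12.4% of all sgRNAs. The sgRNA 1336 had 228, 315 and 230.0 normalized counts in Taxol 1 to 3, against 615 and 743 in AP 1 and AP 3, a difference of -1.40 (limma adjusted p = 0.735). The sgRNA 1340 had 302, 496 and 338 in Taxol, against 1153 and 711 in AP, a difference of -1.29 (limma adjusted p = 0.735). Both passed limma unadjusted, where 3.9% of sgRNAs were lower and 2.2% higher. By contrast 1331, which was low in Taxol against DMSO, had 757, 642 and 647 in Taxol, against 278 and 948 in AP, and overlapped.

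None of the other members was called depleted against AP by RRA. The CHD6 mean was 9.57, 9.08 and 9.20 in Taxol 1 to 3, against 8.84 and 8.66 in AP 1 and AP 3, and the CHD9 mean was 8.75, 8.77 and 9.66 in Taxol 1 to 3, against 8.51 and 8.60 in AP 1 and AP 3. In both genes the Taxol libraries lay above the AP libraries as deposited, which 32.3% of genes did. The differences were 0.53 for CHD6 (SD 0.22, limma adjusted p = 0.177) and 0.51 for CHD9 (SD 0.42, limma adjusted p = 0.253), but -0.21 and -0.23 with libraries scaled to the same total. Relative to the median of all genes they lay at 0.33 and 0.31. CHD6 passed limma unadjusted, but not without AP 1 (difference 0.62) or AP 3 (difference 0.44), at equal totals, with centring (difference 0.0079), with the median over sgRNAs (difference 0.20) or with voom (difference -0.21). CHD9 did not pass as deposited, and was at -0.018 with centring and 0.14 with the median over sgRNAs. Single sgRNAs differed widely within both genes. The sgRNA 1317 of CHD6 had 8753, 849.9 and 2034 normalized counts in Taxol 1 to 3, against 532 and 455 in AP 1 and AP 3, and 1347 of CHD9 had 151, 132 and 3805 in Taxol, against 91.8 and 128 in AP. Both had Taxol counts above all AP counts, with differences of 2.33 and 1.96, while 1313 of CHD6 and 1342 of CHD9 had Taxol counts below all AP counts (-1.06 and -0.66). CHD7 had 8.96, 8.81 and 8.54 in Taxol 1 to 3, against 8.98 and 8.79 in AP 1 and AP 3, a difference of -0.12 (SD 0.19, 95% interval -0.58 to 0.34) with groups that overlapped. The CHD7 difference was -0.86 at equal totals (limma adjusted p = 0.0845) and -0.64 with centring (limma adjusted p = 0.0763), and -0.32 relative to the median of all genes.

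Set against its paralogues within each library, CHD8 was lower in these same Taxol libraries than in AP. The CHD8 mean minus the average of CHD6, CHD7 and CHD9 was 0.0043, -0.00096 and -0.47 in Taxol 1 to 3, against 0.54 and 0.47 in AP 1 and AP 3, a difference of -0.66 with p = 0.1 by an exact two-sided permutation test, the smallest that 3 against 2 libraries can give. Between DMSO and AP it was 0.69, 0.57 and 0.75 in DMSO 1 to 3, against 0.54 and 0.47 in AP 1 and AP 3, a difference of 0.16 with p = 0.2 by the same exact test. The DMSO libraries thus all lay above the AP libraries, so groups that did not overlap were not particular to Taxol.

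**Figure D5:**
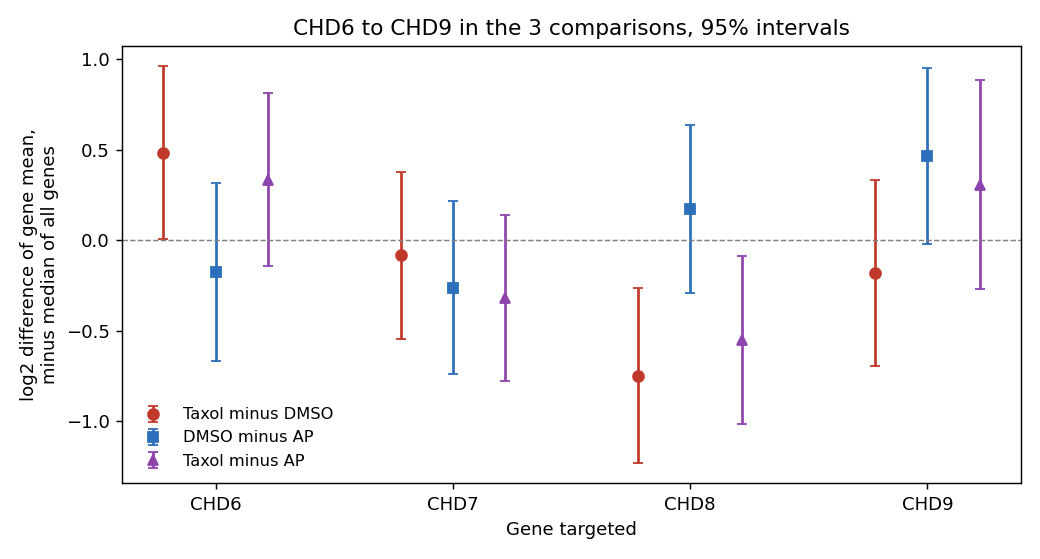
log2 difference of the gene mean minus the median of all genes (vertical axis) for CHD6, CHD7, CHD8 and CHD9 in the 3 comparisons, which share libraries; bars are 95% intervals of the difference from limma. CHD8 lies at -0.75 for Taxol minus DMSO, 0.17 for DMSO minus AP and -0.55 for Taxol minus AP.

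The other CHD remodellers of the library, CHD1, CHD1L, CHD2, CHD3, CHD4 and CHD5, were all measured. In Taxol against DMSO, none of the 6 passed the RRA threshold for depletion and 2 passed it unadjusted for enrichment, where 4.62% and 6.68% of all genes did, with a median difference of 0.030 against 0.031 over all genes. CHD2, a remodeller of active genes, differed by 0.90 (SD 0.67, exact RRA p = 0.000269, adjusted p = 0.0754), and CHD1, which reads H3K4 methylation at transcribed genes, by 0.82 (SD 0.49, exact RRA p = 0.000615, adjusted p = 0.104). The adjusted limma p of CHD2 was 0.346 without a block and 0.0116 with the replicate block. Its adjusted RRA p was 0.0150 without Taxol 2 and 0.0495 with centring on the non-targeting sgRNAs. With only sgRNAs of a mean of at least 100 normalized counts that p was 0.0196. Without Taxol 1 the unadjusted RRA p-values of CHD2 and CHD1 were 0.488 and 0.199. In DMSO against AP none of the 6 passed in either direction, with a median of 0.093 against 0.15 over all genes. In Taxol against AP the median was 0.50 against 0.20, and CHD1 was called enriched after adjustment, as 1.41% of genes were (0.99, SD 0.56, adjusted p = 0.0258). That RRA call was lost without Taxol 1, Taxol 3, AP 1 or AP 3 (adjusted p = 0.115 to 0.568). It was also lost with ranks within 10% (0.350) and with voom on recovered reads (0.121). CHD5 was enriched unadjusted, as 8.47% of genes were (0.61, but -0.13 at equal totals, exact RRA p = 0.0207), and CHD4, the motor of the NuRD complex, was depleted unadjusted, as 13% of genes were (-0.38, exact RRA p = 0.0124). Neither held without AP 3 for CHD4 (exact RRA p = 0.0773), or without any of Taxol 1, Taxol 2, Taxol 3 and AP 1 for CHD5 (exact RRA p = 0.0510 to 0.557).

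Of the 10 listed partners of CHD8, 9 were measured here. In Taxol against DMSO, 2 of the 9, MEN1 and KMT2A, were depleted at an unadjusted RRA p under 0.05, as 4.62% of all genes were, none after adjustment, none was enriched (6.68% of all genes unadjusted), and the median over the 9 was 0.18. MEN1, which encodes menin and tethers the MLL1 methyltransferase, differed by -0.80 (SD 0.20, exact RRA p = 0.00108, adjusted p = 0.279), and KMT2A, which encodes MLL1, by -0.45 (SD 0.10, exact RRA p = 0.0153, adjusted p = 0.889). With the replicate block the RRA p of KMT2A was 0.0584, and it was 0.0575 to 0.125 without any 1 of Taxol 1 to 3, DMSO 1 and DMSO 3. The same RRA p was 0.0608 at equal totals, 0.0521 with ranks within 10% and 0.0648 with voom on recovered reads. MEN1, KMT2A and CHD8 itself were candidates from this same screen that the paper followed up, and the list was chosen with earlier results known. The depletion of MEN1 and KMT2A here is thus not separate evidence of a link to CHD8. The core subunits shared by all MLL complexes, to which CHD8 binds, gave no call with it: WDR5 differed by 0.21, RBBP5 by 0.40, ASH2L by -0.30 and DPY30 by 0.18, with unadjusted RRA depletion p-values of 0.230, 0.898, 0.0641 and 0.533.

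Relative to AP, some of these shared subunits did pass, and the median over the 9 was 0.054 in DMSO and -0.15 in Taxol. In DMSO against AP, 2 of the 9 partners passed the unadjusted threshold for depletion that 11.6% of all genes passed, RBBP5 (-0.58, SD 0.25, exact RRA p = 0.00221) and HCFC1, a cofactor of several methyltransferase complexes (-0.62, SD 0.31, exact RRA p = 0.0209). RBBP5 had an exact RRA p = 0.120 without DMSO 2, and HCFC1 one of p = 0.0798 without DMSO 3. In Taxol against AP, 4 of the 9 passed it, as 13% of all genes did, and 1 of these, ASH2L, passed after adjustment as 4.88% of genes did (-0.48, SD 0.088, adjusted p = 0.0146, but 0.0567 without AP 1 and 0.228 without AP 3). The other 3 were HCFC1 (-0.56, exact RRA p = 0.00539), RBBP5 (-0.13, exact RRA p = 0.0135) and DPY30 (-0.33, exact RRA p = 0.0479). The RRA p of RBBP5 was 0.149 without Taxol 1, 0.0597 without Taxol 2 and 0.218 without AP 1 (its difference was 0.011 without AP 1), and that of DPY30 was 0.0724 without Taxol 2, 0.276 without Taxol 3 and 0.315 without AP 3. Against AP, CHD8 in DMSO was 0.32, beside -0.23 for ASH2L and -0.58 for RBBP5.

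The PBAF subunits listed as partners of CHD7 gave no call in Taxol against DMSO. None of the 8 passed the RRA threshold in either direction, and the median was -0.19, with 6 below 0. The ATPase SMARCA4 had the lowest value, -0.43 (SD 0.36, exact RRA p = 0.183), beside -0.050 for CHD7. SMARCE1 differed by -0.20 (exact RRA depletion p = 0.234). The paper, with its own ranking, names SWI-SNF members among the most depleted genes. It also reports that SMARCE1 knockout significantly lowered viability in its competition assay. None of the 8 passed in DMSO against AP, where the median was 0.019, and in Taxol against AP it was -0.096. In Taxol against AP, 1 of the 8 was depleted and 1 enriched unadjusted, shares near the 13% and 8.47% of all genes. ARID2, a subunit found only in PBAF, was depleted unadjusted (-0.39, exact RRA p = 0.0416, but 0.229 without Taxol 1 and 0.179 without Taxol 3), and SMARCB1 was enriched unadjusted (0.15, exact RRA p = 0.0371, with the sign turned at equal totals and a p of 0.0993 to 0.395 without Taxol 1, Taxol 2 or Taxol 3).

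The genes whose means moved most like that of CHD8 over the 6 Taxol and DMSO libraries were MEN1 (Pearson r = 0.95), CXXC1 (r = 0.93), EED (r = 0.90), CDC6 (r = 0.89) and GATAD1 (r = 0.86), chosen as the 5 highest of 778. CXXC1 is a subunit of the SET1 complexes and EED one of PRC2. Like CHD8, MEN1 and GATAD1 were candidates that the paper followed up from this screen. The MEN1 mean was 8.93, 8.93 and 8.72 in Taxol 1 to 3, against 9.55, 9.95 and 9.48 in DMSO 1 to 3, and like CHD8 it was lowest in Taxol 3 and highest in DMSO 2. The points share library depth and scaling, and the median r of all genes with CHD8 was 0.038. They also span both groups, so r includes the Taxol minus DMSO difference of each gene and is no separate result. That difference was -0.80 for MEN1, -0.12 for CXXC1, -0.39 for EED, -0.22 for CDC6 and -0.75 for GATAD1. The paralogues were not among the genes like CHD8, with r = 0.56 for CHD7, 0.12 for CHD9 and -0.40 for CHD6.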

How the data were processed

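The libraries hold sgRNA amplicons from genomic DNA, counted per sgRNA. The authors deposited sgRNA tables of normalized counts from MAGeCK 0.5.8 (the submitters' processing notes), 1 table for each of the 3 comparisons and scaled on its own, so tests were made within a table. The deposited values of a group stand joined in 1 cell, a form recorded as other, since no cell is a single number. Trimming, mapping options and a genome build are not given in the sources used here. The place of a value in its cell was taken as the replicate number, after the order of numbers in the table names. AP cells hold 3 values, of which those in places 1 and 3 were used, leaving out 2 value columns in all. The authors' own fold changes, scores and p-values, per sgRNA and per gene, were not used. Sequences of the sgRNAs are not given here.

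Values were log2(normalized count + 1), with no filter on low counts. Each sgRNA, and the mean of each gene, was tested with limma 3.58.1 in R 4.3.3 (lmFit, eBayes with trend) without covariates. For each gene, a new implementation of alpha-RRA took the ranks of its sgRNAs in the outer 25% of either end, with an exact one-sided p for uniform ranks and Benjamini-Hochberg adjustment over 779 genes in each direction. It follows the gene test and the unadjusted threshold that the study names, on another ranking of the sgRNAs. Each SD is the residual SD between libraries of a gene's mean. Reads were recovered as whole multiples of a fixed step, and within 0.1 read this held for 99.0% to 99.99% of values. The scripts were tested on simulated data.

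Taxol and DMSO libraries of the same number deviated together across gene means (correlations 0.194, 0.153 and 0.217, against -0.131 to -0.0524 for different numbers). Deviations were taken from each group's mean, so positive correlations for the same number bring negative ones for different numbers. The numbers, which come from the labels and the order of values, were taken to pair the libraries. The named genes were all 4 members with every sgRNA, 3 gene lists with values for members past the unadjusted threshold and up to 4 others, the 5 genes most correlated with CHD8, and ABCB1. The members and lists were chosen with earlier results of these data known.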

Additional observations from a re-analysis of the deposited data

How the results depend on the processing

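The alternatives were a pseudocount of 10, sgRNAs with a mean of at least 100 normalized counts, centring on non-targeting sgRNAs, equal totals, the median over sgRNAs, ranking by fold change, ranks within 10%, a replicate block, each library left out and, added after seeing the data, voom on recovered reads and leaving out sgRNA 1333. The planned count test on recovered reads was not run, as it needs a column of single counts. In Taxol against DMSO, CHD8 kept its direction and its unadjusted RRA call under every alternative, with differences of -1.03 to -0.70 and RRA p-values of 0.000978 to 0.00578, and -0.84 to -0.60 and 0.000213 to 0.00884 with a library left out. Its adjusted RRA p was 0.0827 to 0.796 over all of these. With the replicate block the CHD8 difference is -0.72 by construction, since every number has both a Taxol and a DMSO library. The block changed no call of the 4 members in this comparison. Of the other genes named, it changed only those of KMT2A, CHD2 and ABCB1 given with the results.

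In the same comparison the CHD7 value was 0.059 with the median over sgRNAs and -0.21 to 0.069 with a library left out. The CHD9 value was -0.44 to 0.034, and the CHD6 enrichment p 0.00204 to 0.107, with a library left out. In DMSO against AP the CHD8 value was -0.065 at equal totals and -0.065 with voom, and with a library left out the CHD6 value was -0.24 to 0.11 and the CHD7 value -0.26 to 0.059. In Taxol against AP the CHD8 values with centring, equal totals and voom were -0.88, -1.09 and -1.09, each past the adjusted limma threshold. With centring 235 genes were lower at an unadjusted limma p under 0.05, and at equal totals 250, against 49 as deposited. The share of genes called after adjustment is not given for these settings, so these calls do not by themselves set CHD8 apart from other genes. The CHD9 values with the same settings were -0.018, -0.23 and -0.23. CHD6 was -0.21 at equal totals and -0.21 with voom. These reversals against AP go with the shift of the median of all genes. The CHD8 depletion p was 0.0516 ranked by fold change, 0.0980 within 10%, 0.0778 with the replicate block, 0.0632 with voom and 0.0232 to 0.135 with a library left out; the cause was not tested. Numbers did not pair libraries against AP (2 shared numbers, correlations of -0.0531 to 0.0428). There the block, beside the values above, removed the unadjusted CHD9 limma call in DMSO against AP and gave CHD9 an RRA enrichment p of 0.0291 in Taxol against AP. AP has no replicate 2, so against AP the block gives the same differences as leaving out DMSO 2 or Taxol 2.

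Among the list genes in Taxol against AP, RBBP5 was 0.045 with the filter at 100 and -0.28 to 0.011 with a library left out. CHD5 was -0.13 at equal totals and -0.12 with voom. SMARCB1 was -0.12 with the filter, -0.38 with centring, -0.59 at equal totals, -0.19 with the median, -0.58 with voom and -0.13 to 0.42 with a library left out. Counts of genes called by RRA at an unadjusted p stayed within 1.5 times the reported ones. At an adjusted p they were 0 to 2 (reported 2) depleted and 1 to 4 (reported 1) enriched in Taxol against DMSO, 1 to 6 (reported 1) enriched in DMSO against AP, and 2 to 39 (reported 38) depleted and 1 to 12 (reported 11) enriched in Taxol against AP. Each group held 2 or 3 libraries, and the part of read depth in the lack of calls for single sgRNAs was not tested.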
